A study of Mus musculus with 12 samples.

Results

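Cytokine receptor and survival genes were followed in gamma delta T cells carrying the Vg4 and Vd4 receptor chains, taken from lymph nodes that drain the skin. The set held 10 of the 45796 genes in the deposited table. It was chosen by name, with earlier results of these data known, so its counts beside those of all genes are descriptions. The set has the receptor genes Il7r, Il2rb, Il2rg, Il21r, Il4ra, Il18r1, Ifngr1 and Tgfbr2, and the survival genes Bcl2 and Mcl1. The C57BL/6 mice were NF-kB1 deficient with imiquimod cream, wild type with imiquimod cream, NF-kB1 deficient with sham cream, or wild type with sham cream, with 3 libraries in each of the 4 groups. NF-kB1 encodes p105 and its product p50, subunits of the NF-kB transcription factors, and the labels do not say how the gene was changed, or in which cells. Imiquimod is a Toll-like receptor agonist that inflames mouse skin. The labels also do not say whether the 3 replicates of a group were separate animals or pools, so variation among them may be technical only. The p-values rest on that variation and on a spread shared among the tested genes.

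Interleukin-7 binds a receptor made of the chain encoded by Il7r and the common gamma chain encoded by Il2rg, and signals through JAK kinases to STAT5. In lymphocytes this signal is known to keep up the anti-apoptotic protein BCL2 and so to sustain resting cells, and IL-7 is known to be needed by gamma delta T cells. Il7r transcription in T cells is known to fall on activation and to be driven by the forkhead factor FOXO1.

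Under imiquimod, Il7r and Bcl2 were both higher in NF-kB1-deficient than in wild-type cells. Il7r averaged 37.2 ± 10.5 normalized values in NF-kB1-deficient imiquimod libraries and 8.01 ± 5.25 in wild-type imiquimod libraries (SD, n = 3 each), and Bcl2 averaged 27.3 ± 0.692 in NF-kB1-deficient and 2.28 ± 2.70 in wild-type imiquimod libraries (SD, n = 3 each). A normalized value is 2 raised to the deposited log2 value. These 2 genes passed the test, limma on log2(normalized value + 1) with a Benjamini-Hochberg adjustment over 1571 genes and a call at an adjusted p under 0.05. They make 2 of the 9 members tested, where 1.27% of all tested genes were called higher in this comparison. Il21r, Tgfbr2 and Ifngr1 also had all 3 NF-kB1-deficient imiquimod values above all 3 wild-type imiquimod values, without passing the test. In the NF-kB1-deficient cells no member was called between imiquimod and sham, where 0% of all tested genes were called.

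The promoters of Il7r and Bcl2 are shown because these genes were called together, and they differ in composition. Each line gives the 250 bases before a start of transcription in RefSeq (GRCm38.p6), 5′ to 3′ on the gene's strand, with CpG dinucleotides in capitals. The Il7r window is chr15:9529877-9530126 and the Bcl2 window is chr1:106714291-106714540, both on the minus strand. The start used for Il7r lies inside the gene span, which runs to 9529941, so part of its window overlaps the gene.
Il7r: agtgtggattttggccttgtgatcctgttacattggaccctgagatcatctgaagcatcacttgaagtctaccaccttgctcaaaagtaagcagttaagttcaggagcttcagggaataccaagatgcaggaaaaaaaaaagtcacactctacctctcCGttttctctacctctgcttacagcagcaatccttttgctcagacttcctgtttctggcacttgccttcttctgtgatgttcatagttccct
Bcl2: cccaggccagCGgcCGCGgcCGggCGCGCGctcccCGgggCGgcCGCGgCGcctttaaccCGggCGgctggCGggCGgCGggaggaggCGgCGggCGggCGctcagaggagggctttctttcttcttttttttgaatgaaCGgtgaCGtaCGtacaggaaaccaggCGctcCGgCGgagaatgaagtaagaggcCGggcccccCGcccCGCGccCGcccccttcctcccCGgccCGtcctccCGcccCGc
The Il7r window held 1 CpG and 44.0% G or C, and 18.8% of 32851 mouse promoter windows of this length had as few CpG or fewer. The Bcl2 window held 36 CpG and 74.8% G or C, and 2.58% had as many or more. The median window had 6 CpG and 52.4% G or C. RefSeq windows were matched for 9 of the 10 genes, with Il2rb unmatched, and 4 motifs were searched on both strands. The STAT motif TTCNNNGAA, found in 7.02% of all windows, matched in the Il7r window from 142 bases before the start used. It matched also in the window of 1 Il18r1 start, from 219 and from 152 bases before it. The forkhead motif GTAAACA, found in 3.17% of windows, matched in Il21r from 38 bases before a start inside the gene span, on the opposite strand. The ETS motif CCGGAAGT and the NF-kB consensus, found in 2.88% and 7.25% of all windows, matched in 0 of the 9 genes. A match describes letters only, and a window without one says nothing on the factor.

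Depth and purity touch every value below. Low values fell on steps, from which 20507 to 69453 reads on genes per library were estimated. Depth moved with genotype under imiquimod, with 45957 to 67044 estimated reads in NF-kB1-deficient and 20507 to 35612 in wild-type imiquimod libraries, and its part in the results was not tested. One read was worth 0.501 to 0.699 normalized values in NF-kB1-deficient imiquimod libraries and 1.05 to 1.98 in wild-type imiquimod libraries. Of 20 T cell and gamma delta T cell markers 17 were in the table, and their summed value was 224 to 302 in NF-kB1-deficient imiquimod, 115 to 151 in wild-type imiquimod, 132 to 283 in NF-kB1-deficient sham and 234 to 248 in wild-type sham libraries. Tcrd, the receptor delta chain locus and the defining marker, was at 53.5 to 62.8 in NF-kB1-deficient imiquimod, 14.1 to 30.5 in wild-type imiquimod, 40.3 to 72.8 in NF-kB1-deficient sham and 65.8 to 76.8 in wild-type sham libraries. Tcrd therefore had the same order under imiquimod as Il7r, Bcl2, Il21r, Tgfbr2 and Ifngr1, with all NF-kB1-deficient values above all wild-type values. Its part in them was not tested. Il2rb, Il2rg, Il18r1, Mcl1 and Il4ra overlapped between these groups. The other T cell and gamma delta T cell markers did not all share the order of Tcrd. Ptprc, Cd27, Cd3e and Cd3g also had all NF-kB1-deficient imiquimod values above all wild-type imiquimod values. Tcrg-C2, Maf, Thy1, Cd3d, Cd247, Blk and Sox13 overlapped between these groups. Tcrg-C2 was at 22.4, 13.6 and 5.03 in NF-kB1-deficient and 12.3, 22.3 and 18.8 in wild-type imiquimod libraries. Il17a, Trdc, Tcrg-C1 and Tcrg-C4, also on that list, were listed at 0 in all 12 libraries. Actb, an actin gene, had the opposite order, with 107 ± 14.3 in NF-kB1-deficient and 193 ± 25.5 in wild-type imiquimod libraries (SD, n = 3 each).

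A listed 0 does not show that a gene is absent. Gapdh, a gene that every cell uses, was listed at 0 in 2 of 3 NF-kB1-deficient imiquimod and 0 of 3 wild-type imiquimod libraries. It was also at 0 in 2 of 3 NF-kB1-deficient sham and 1 of 3 wild-type sham libraries. These zeros did not follow depth, since Gapdh was highest, at 15.8, in wild-type imiquimod replicate 3, the shallowest library. Their cause was not tested. Markers of other cells are given with the limit that a listed 0 is not absence. The 10 B cell markers summed to 0 in NF-kB1-deficient imiquimod, wild-type imiquimod and NF-kB1-deficient sham libraries, and to at most 1.46 in wild-type sham libraries. The 12 markers of macrophages, monocytes and dendritic cells summed to 0 in the same 3 groups and to at most 1.95 in wild-type sham. The 8 alpha beta T cell markers summed to 0 to 11.03 in NF-kB1-deficient imiquimod, 0 to 3.14 in wild-type imiquimod, 1.26 to 19.5 in NF-kB1-deficient sham and 0 to 7.08 in wild-type sham libraries, with Cd4, Trac, Trbc1 and Trbc2 listed at 0 throughout. The gamma delta receptor entries Trdc, Tcrg-C1 and Tcrg-C4 were listed at 0 as well, while Tcrd was not. Zeros of Trac, Trbc1 and Trbc2 thus do not show whether alpha beta T cells were absent. Tcrb, the beta chain locus, is not on that list and was at 72.7 to 80.9 in NF-kB1-deficient imiquimod, 57.4 to 82.3 in wild-type imiquimod, 83.7 to 91.5 in NF-kB1-deficient sham and 73.0 to 103 in wild-type sham libraries. Markers of NK and innate lymphoid cells, which also use several of the receptors studied, summed to 5.19 to 23.8 in NF-kB1-deficient imiquimod, 2.63 to 13.9 in wild-type imiquimod, 2.60 to 13.8 in NF-kB1-deficient sham and 2.24 to 24.5 in wild-type sham libraries. These sums came from Eomes and Gata3 only, with Ncr1, Klrb1c, Klra4, Klra8 and Il1rl1 listed at 0 in all libraries. The plasma cell list, in which Prdm1 and Xbp1 are also T cell genes, summed to 2.25 to 21.7 in NF-kB1-deficient imiquimod, 6.93 to 21.5 in wild-type imiquimod, 0 in NF-kB1-deficient sham and 0 to 6.21 in wild-type sham libraries, with Igkc and Tnfrsf17 listed at 0 in all libraries. Neutrophil markers reached at most 3.31 and stromal, endothelial and keratinocyte markers at most 8.07 in any library. In these sorted populations a lower value cannot be told apart between fewer cells of a type and less RNA per cell. Nfkb1 itself was at 5.41 to 6.64 in NF-kB1-deficient imiquimod, 0 to 21.0 in wild-type imiquimod, 1.09 to 8.82 in NF-kB1-deficient sham and 1.24 to 6.71 in wild-type sham libraries, and because a 3′ tag can lie outside the changed part they are no check of genotype.

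**Figure D1:**
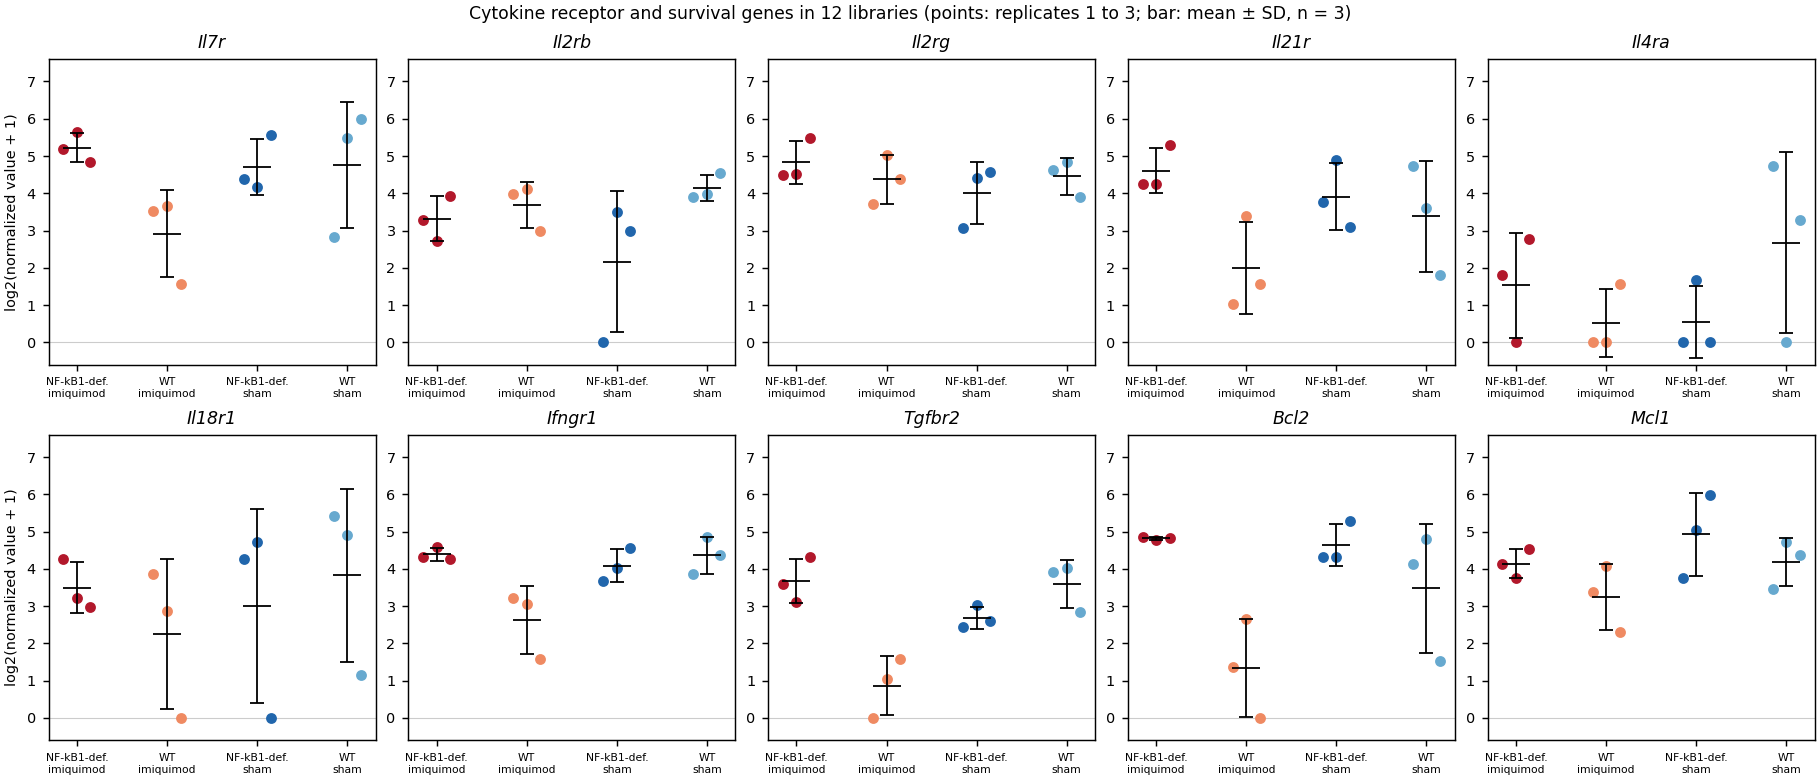
Each panel plots log2(normalized value + 1) of 1 gene in the 12 libraries, by group, with points for replicates 1 to 3 and bars for the mean ± SD (n = 3). Bcl2 and Tgfbr2 have their lowest means in wild-type imiquimod libraries, while the values of Il2rb and Il2rg overlap between the genotypes under imiquimod.

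Il7r encodes the alpha chain of the IL-7 receptor, which also serves the receptor for thymic stromal lymphopoietin. The gene (Entrez 16197) is protein coding and lies on chromosome 15 of GRCm38, from 9506159 to 9529941 on the minus strand, and the single CpG of its promoter window is marked above. Its normalized values were 35.3, 48.5 and 27.9 in NF-kB1-deficient imiquimod libraries, 10.5, 11.6 and 1.98 in wild-type imiquimod libraries, 19.8, 17.0 and 46.1 in NF-kB1-deficient sham libraries, and 6.15, 43.7 and 62.5 in wild-type sham libraries. All 3 NF-kB1-deficient imiquimod values were thus above all 3 wild-type imiquimod values, while wild-type sham replicate 1 lay within the range of the wild-type imiquimod libraries. The values rest on an estimated 183 reads over the NF-kB1-deficient imiquimod group, 22.0 over wild-type imiquimod, 79.2 over NF-kB1-deficient sham and 145 over wild-type sham.

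Il7r rose by a log2 fold change of 2.31 ± 0.67 (SE) in NF-kB1-deficient over wild-type cells under imiquimod, with a 95% interval of 0.98 to 3.63 and a limma adjusted p of 0.0459. This call was narrow. It was lost without 8 of the 12 libraries, each left out alone. Leaving out wild-type imiquimod replicate 3 gave an adjusted p of 0.204 and a fold of 1.63, and it was 0.149, 0.327 and 0.107 without NF-kB1-deficient imiquimod replicates 1, 2 and 3. It was 0.0653 and 0.0504 without NF-kB1-deficient sham replicates 1 and 3, and 0.0713 and 0.0560 without wild-type sham replicates 2 and 3. With a pseudocount of 10 the fold was 1.42 and the adjusted p 0.0573.

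In wild-type cells Il7r had a log2 fold change of -1.85 ± 0.67 in imiquimod over sham, and its limma adjusted p of 0.103 missed the threshold. With 1 of the compared libraries left out, the log2 fold change ran from -2.82 without wild-type sham replicate 1, the low sham library (limma adjusted p = 0.00977), to -1.18 when wild-type imiquimod replicate 3 was dropped (adjusted p of 0.328). Dropping wild-type sham replicate 3 gave -1.24 (adjusted p of 0.424). In NF-kB1-deficient cells the log2 fold change of imiquimod over sham was 0.52 ± 0.67, with a 95% interval of -0.81 to 1.85. Between the genotypes under sham it was -0.07 ± 0.67, with an interval of -1.40 to 1.26 that leaves room for changes of over 1 log2 unit either way. The responses to imiquimod differed between the genotypes by 2.37 ± 0.95 on the log2 scale, with a limma adjusted p of 0.320 for that difference, which was not called.

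The other receptor chains of the same family did not share one pattern. Il2rg (Entrez 16186, chromosome X) encodes the common gamma chain, the partner of the IL-7, IL-2, IL-4, IL-15 and IL-21 receptors. Its normalized values ran from 21.3 to 43.9 in NF-kB1-deficient imiquimod, 12.1 to 31.6 in wild-type imiquimod, 7.35 to 22.7 in NF-kB1-deficient sham and 13.99 to 27.5 in wild-type sham libraries, and all 4 ranges overlapped. Il2rg overlaps the predicted gene Gm20489 on the same strand, so reads of the pair cannot be told apart. The log2 fold change between the genotypes under imiquimod was 0.46 ± 0.65, with a 95% interval of -0.82 to 1.74 and a limma adjusted p of 0.7999.

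Il2rb (Entrez 16185, chromosome 15) encodes the beta chain shared by the IL-2 and IL-15 receptors. Its values were 8.79, 5.59 and 14.3 in NF-kB1-deficient imiquimod, 14.7, 16.3 and 6.93 in wild-type imiquimod, 0, 10.4 and 6.92 in NF-kB1-deficient sham and 13.98, 14.9 and 22.4 in wild-type sham libraries. It was the 1 tested member with a lower mean in NF-kB1-deficient than in wild-type cells under imiquimod, where the groups overlapped and the log2 fold change was -0.38 ± 0.99 (95% interval -2.33 to 1.58). Under sham cream all 3 NF-kB1-deficient values lay below all 3 wild-type values. That log2 fold change was -1.98 ± 0.99 and its limma adjusted p 0.809, in a comparison where 0% of tested genes were called and 4.65% had groups that did not overlap in this direction.

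Il21r (Entrez 60504, chromosome 7) encodes the receptor chain for IL-21, a cytokine of helper T cells. Its values were 18.0, 18.2 and 38.3 in NF-kB1-deficient imiquimod, 1.05, 9.47 and 1.98 in wild-type imiquimod, 12.5, 28.5 and 7.55 in NF-kB1-deficient sham and 25.7, 11.2 and 2.48 in wild-type sham libraries. The imiquimod groups did not overlap, and wild-type imiquimod replicates 1 and 3 held an estimated 1 read each. The log2 fold change was 2.60 ± 0.95 under imiquimod, with a limma adjusted p of 0.153.

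Il4ra (Entrez 16190, chromosome 7), the alpha chain of the IL-4 receptor, was listed at 0 in 6 of 12 libraries. With a mean of 3.91 normalized values over all libraries it stayed under the filter of 5 and was not tested. It stood at 2.504, 0 and 5.84 in NF-kB1-deficient imiquimod, 0, 0 and 1.98 in wild-type imiquimod, 0, 2.19 and 0 in NF-kB1-deficient sham and 25.7, 0 and 8.69 in wild-type sham libraries. Its highest values were thus in 2 wild-type sham libraries, and every pair of groups overlapped.

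Among the receptors for inflammatory and regulatory cytokines, Tgfbr2 and Ifngr1 were lowest in wild-type imiquimod cells. Tgfbr2 (Entrez 21813, chromosome 9) encodes the ligand-binding receptor for TGF-beta, which restrains T cells and signals through SMAD proteins. Its values were 11.02, 7.68 and 18.8 in NF-kB1-deficient imiquimod, 0, 1.05 and 1.98 in wild-type imiquimod, 4.41, 7.12 and 5.03 in NF-kB1-deficient sham and 13.98, 15.4 and 6.21 in wild-type sham libraries. The wild-type imiquimod values, an estimated 2 reads over the group, were below every other library. The log2 fold change was 2.80 ± 1.11 between the genotypes under imiquimod (limma adjusted p = 0.199) and -2.72 ± 1.11 in wild-type imiquimod over wild-type sham (adjusted p = 0.139). With so few reads the first depends on the pseudocount, and it was 4.25 with 0.1 and 1.01 with 10. The NF-kB1-deficient imiquimod values also lay above all 3 NF-kB1-deficient sham values, the 1 member to do so where 6.11% of tested genes did, and the log2 fold change of 0.99 ± 1.11 had an adjusted p of 0.996.

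Ifngr1 (Entrez 15979, chromosome 10) encodes the ligand-binding chain of the interferon gamma receptor. Its values were 19.0, 23.1 and 18.2 in NF-kB1-deficient imiquimod, 8.38, 7.37 and 1.98 in wild-type imiquimod, 11.8, 15.3 and 22.7 in NF-kB1-deficient sham and 13.4, 27.8 and 19.8 in wild-type sham libraries. Wild-type imiquimod values lay below those of the other 9 libraries. The log2 fold change was 1.77 ± 0.81 between the genotypes under imiquimod (limma adjusted p = 0.276) and -1.74 ± 0.81 in wild-type imiquimod over wild-type sham (adjusted p = 0.195). Neither passed the test.

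Il18r1 (Entrez 16182, chromosome 1), the receptor chain for IL-18, had the widest spread of the 10 genes over the 12 libraries, with an SD of 1.85 on the log2 scale. Its values ran from 6.85 to 18.3 in NF-kB1-deficient imiquimod, 0 to 13.6 in wild-type imiquimod, 0 to 25.2 in NF-kB1-deficient sham and 1.24 to 41.4 in wild-type sham libraries. No groups separated, and the log2 fold change between the genotypes under imiquimod was 1.24 ± 1.10, with a limma adjusted p of 0.650. It was 0.12 without wild-type imiquimod replicate 3 and 2.06 without wild-type imiquimod replicate 1.

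Bcl2 encodes the anti-apoptotic protein of the mitochondrial membrane for which the BCL2 family is named. The gene (Entrez 12043) lies on chromosome 1 of GRCm38, from 106538176 to 106714290 on the minus strand, behind the CpG-rich promoter shown above. It overlaps Mir3473f and Gm37053 on the same strand, both listed at 0 in all libraries, and D630008O14Rik on the other strand, and whether the counting used strand is not given in the sources used here. Its normalized values were 27.9, 26.5 and 27.5 in NF-kB1-deficient imiquimod libraries, 1.57, 5.26 and 0 in wild-type imiquimod libraries, 18.9, 18.8 and 38.0 in NF-kB1-deficient sham libraries, and 16.6, 26.7 and 1.86 in wild-type sham libraries. The 3 NF-kB1-deficient imiquimod values were nearly equal and far above the wild-type imiquimod values, and wild-type sham replicate 3 was as low as the wild-type imiquimod libraries. The wild-type imiquimod values come from an estimated 6.50 reads over the group, against 136 over NF-kB1-deficient imiquimod.

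Bcl2 rose by a log2 fold change of 3.48 ± 0.92 in NF-kB1-deficient over wild-type cells under imiquimod, with a 95% interval of 1.67 to 5.30 and a limma adjusted p of 0.0252. The call was kept without any 1 sham library. It was lost without wild-type imiquimod replicate 3 (log2 fold change 2.82, adjusted p = 0.0709) and without NF-kB1-deficient imiquimod replicates 1, 2 and 3 (adjusted p = 0.102, 0.204 and 0.122). The fold was 1.62 with a pseudocount of 10, where the adjusted p was 0.0306. In wild-type cells the log2 fold change of imiquimod over sham was -2.14 ± 0.92, and the limma adjusted p of 0.156 missed the threshold. With 1 library left out it ran from -3.13 without wild-type sham replicate 3 (adjusted p = 0.0545) to -1.48 when wild-type imiquimod replicate 3 was dropped (adjusted p of 0.359). Dropping wild-type sham replicate 2 gave -1.49 (adjusted p of 0.492). In NF-kB1-deficient cells the log2 fold change of imiquimod over sham was 0.18 ± 0.92, with a 95% interval of -1.63 to 2.002. The difference between both responses was 2.33 ± 1.30, with an adjusted p of 0.530, so it was not called.

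Mcl1 (Entrez 17210, chromosome 3) encodes a short-lived relative of BCL2 that lymphocytes also need to survive. Its values ran from 12.5 to 22.1 in NF-kB1-deficient imiquimod, 3.96 to 15.8 in wild-type imiquimod, 12.5 to 62.3 in NF-kB1-deficient sham and 10.1 to 25.4 in wild-type sham libraries. The imiquimod groups overlapped, and the log2 fold change between the genotypes was 0.89 ± 0.73, with a 95% interval of -0.56 to 2.33 and a limma adjusted p of 0.632. Bcl2 passed the test under imiquimod and Mcl1 did not, and the difference between these genes was not tested.

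**Figure D2:**
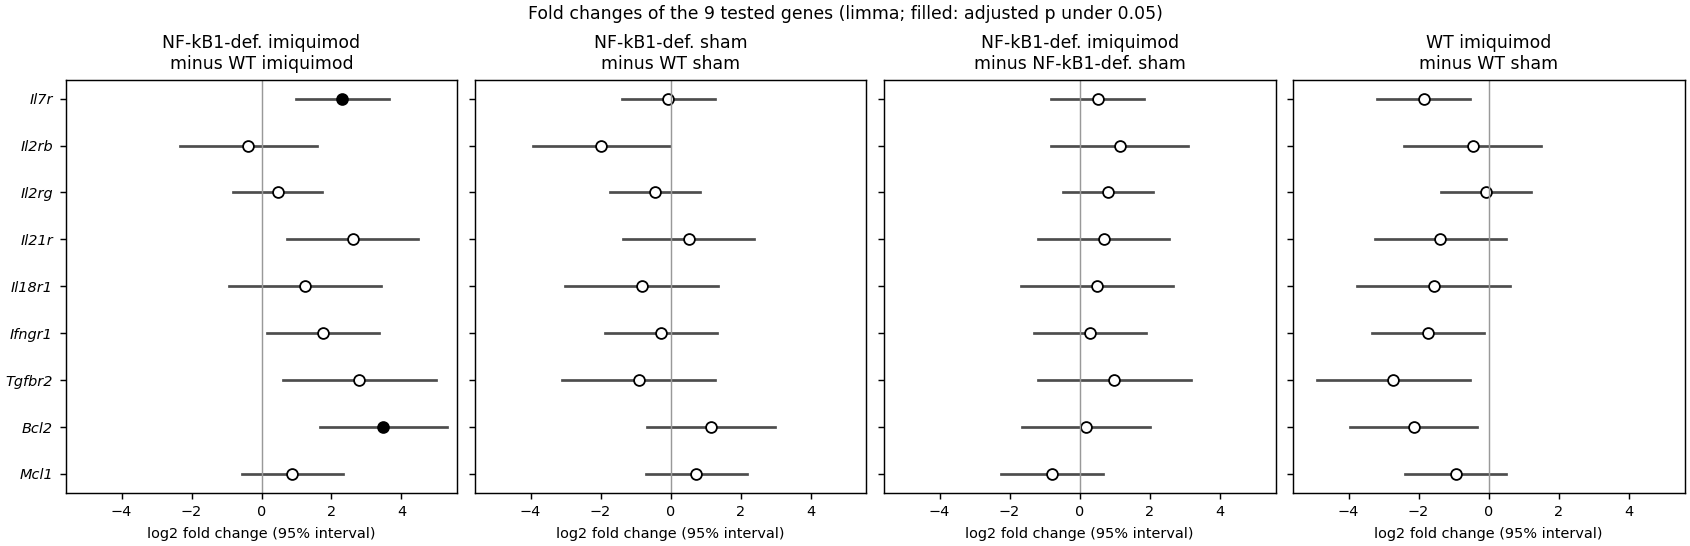
The 4 panels give the log2 fold change of the 9 tested genes in each comparison, with 95% intervals and filled points where the limma adjusted p was under 0.05. Il7r and Bcl2 between the genotypes under imiquimod are the filled points, and the 9 genes in wild-type imiquimod over sham all lie below 0.

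Across the 9 tested members, 8 had a log2 fold change above 0 between NF-kB1-deficient and wild-type cells under imiquimod, where 53.7% of all 1571 genes did. Their median was 1.77, against 0.13 over all genes, and 5 had groups that did not overlap, where 10.8% of all genes were higher without overlap. In wild-type imiquimod over sham, all 9 lay below 0, where 51.9% of all genes did. The median was -1.58, against -0.07 over all genes. By limma 0 of the 9 were called, where 3.25% of all genes were, and 4 had an unadjusted p under 0.05, where 10.9% of all genes were lower at that level. Without overlap, 2 were lower (Tgfbr2 and Ifngr1), where 10.8% of all genes were. Both comparisons use the same 3 wild-type imiquimod libraries, so their directions are not independent.

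In NF-kB1-deficient imiquimod over sham, 8 members were above 0 where 56% of all genes were, with a median of 0.52 against 0.14. By limma 0 were called, and 0 had an unadjusted p under 0.05, where 3.37% of all genes had. Between the genotypes under sham, 6 were below 0, where 51.4% of all genes were, with a median of -0.27 against -0.02. By limma 0 were called, and 1 (Il2rb) was lower at an unadjusted p under 0.05, where 3.63% of all genes were. For the difference between both responses all 9 were above 0, where 55% of all genes were, with a median of 2.07 against 0.24. By limma 0 of the 9 were called in it, where 0.446% of all genes were, and 2 (Il7r and Tgfbr2) were higher at an unadjusted p under 0.05, where 6.81% of all genes were. Bcl2, Il21r and Tgfbr2 averaged under 5 in wild-type imiquimod libraries and passed the filter through other groups, so these counts describe the members and support nothing further. Of all 10 members 8 had their lowest mean log2 level in wild-type imiquimod cells, where 35.3% of the tested genes did, and Il2rb and Il2rg had theirs in NF-kB1-deficient sham cells. Summed over the 10 genes, the values were 179, 172 and 224 in NF-kB1-deficient imiquimod, 71.2, 105 and 40.6 in wild-type imiquimod, 106, 176 and 211 in NF-kB1-deficient sham and 190, 221 and 159 in wild-type sham libraries. The wild-type imiquimod sums were below those of the other 9 libraries, though replicate 2 was next to NF-kB1-deficient sham replicate 1, and 5 of the 10 genes were above 0 in every library, where 31.3% of the tested genes were.

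Genes that act beside these receptors were taken from 4 lists. From the JAK, STAT, SMAD and SOCS list 30 genes are given here, of which 7 were tested. By limma 0 of the 7 were called in any comparison, and 1 (Jak1) was higher in NF-kB1-deficient than in wild-type cells under imiquimod at an unadjusted p under 0.05, where 8.91% of all tested genes were. Their median log2 fold change was 0.66 under imiquimod, against 0.13 over all genes. The 3 with the highest mean are described. Jak1, a kinase that pairs with the chain encoded by Il7r and with most of these receptors, stood at 26.8, 42.3 and 22.4 in NF-kB1-deficient and 6.29, 14.2 and 17.8 in wild-type imiquimod libraries, which did not overlap, and its log2 fold change was 1.25 ± 0.59 (limma adjusted p = 0.298). Pim1, a kinase gene induced by cytokine signals, stood at 14.9, 26.1 and 20.1 in NF-kB1-deficient and 2.53, 15.8 and 25.7 in wild-type imiquimod libraries, which overlapped (log2 fold change 0.84 ± 1.08, adjusted p = 0.768). Stat5b, which encodes a STAT5 protein, stood at 4.01, 3.49 and 3.24 in NF-kB1-deficient and 1.05, 13.7 and 30.7 in wild-type imiquimod libraries. Its groups overlapped and its mean order was opposite to that of Il7r, with a log2 fold change of -1.11 ± 1.18 (95% interval -3.44 to 1.23, limma adjusted p = 0.712).

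Of 10 factors known to regulate Il7r in T cells 6 were tested. Their median log2 fold change was 0.76 between the genotypes under imiquimod, against 0.13 over all genes. It was -1.50 in wild-type imiquimod over sham, against -0.07. The list does not separate factors that raise Il7r from factors that lower it, so these medians have no regulatory direction. Foxp1, a forkhead factor that keeps naive T cells quiescent, was the 1 called. It stood at 28.8, 40.8 and 39.9 in NF-kB1-deficient imiquimod, 1.05, 13.7 and 16.8 in wild-type imiquimod, 47.8, 39.4 and 27.2 in NF-kB1-deficient sham and 36.9, 31.7 and 17.9 in wild-type sham libraries. The wild-type imiquimod values were below the other 9 libraries. The log2 fold change was 2.19 ± 0.62 under imiquimod (limma adjusted p = 0.0424) and -1.82 ± 0.62 in wild-type imiquimod over sham (adjusted p = 0.0835). The fold under imiquimod was 1.20, with an adjusted p of 0.371, when wild-type imiquimod replicate 1 was left out. The call was also lost without NF-kB1-deficient imiquimod replicates 1, 2 and 3 (0.0871, 0.319 and 0.167), NF-kB1-deficient sham replicate 1 (0.0653) and wild-type sham replicate 2 (0.0615). In wild-type imiquimod over sham, leaving out wild-type imiquimod replicate 2 or 3 gave a call instead (log2 fold change -2.24 and -2.38, limma adjusted p = 0.0377 and 0.0290), and leaving out replicate 1 gave -0.82 with an adjusted p of 0.465. Foxo1, which drives Il7r and was named after its values were seen, stood at 8.01, 7.10 and 15.8 in NF-kB1-deficient and 1.05, 7.37 and 0 in wild-type imiquimod libraries, which overlapped (log2 fold change 2.05 ± 1.09, adjusted p = 0.375). In wild-type imiquimod over sham Foxo1 was lower without overlap, where 10.8% of all genes were. That log2 fold change was -2.98 ± 1.09, and its limma adjusted p of 0.103 missed the threshold. The responses differed by 3.53 ± 1.54 (limma adjusted p = 0.362), which was not called.

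**Figure D3:**
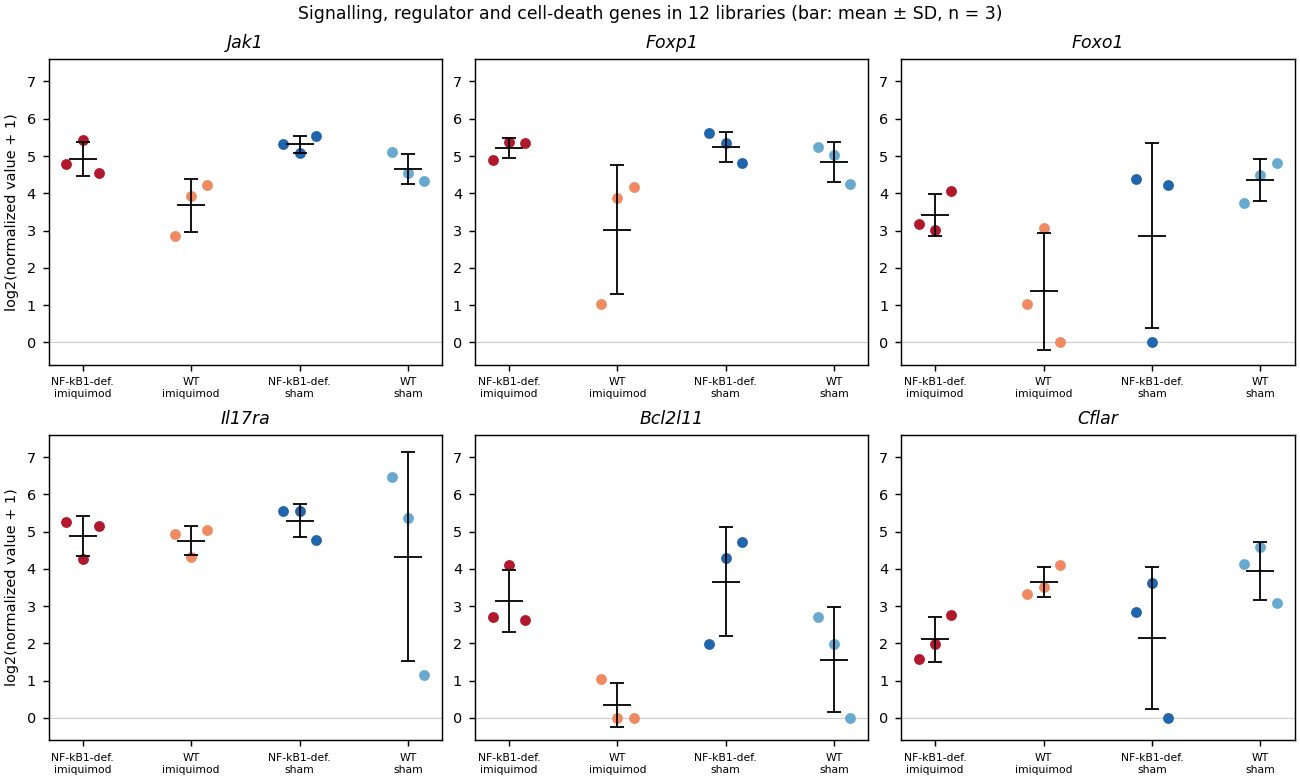
The panels plot log2(normalized value + 1) of 6 signalling, regulator and cell-death genes in the 12 libraries, with points for replicates and bars for the mean ± SD (n = 3). Foxp1 is lowest in wild-type imiquimod libraries, and Il17ra overlaps between all groups. The NF-kB1-deficient imiquimod values lie above the wild-type imiquimod values for Bcl2l11 and below them for Cflar, and neither gene passed the test.

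Of 31 other cytokine receptor genes 3 were tested and 0 were called by limma in any comparison. Il17ra, the receptor chain for IL-17A, averaged 29.9 ± 10.2 in NF-kB1-deficient and 26.7 ± 6.78 in wild-type imiquimod libraries (SD, n = 3 each), with a log2 fold change of 0.13 ± 0.90 and a 95% interval of -1.78 to 2.03. Ifnar2, a chain of the type I interferon receptor, stood at 13.02, 5.59 and 5.19 in NF-kB1-deficient and 1.05, 0 and 0 in wild-type imiquimod libraries, with a log2 fold change of 2.71 ± 1.27 (limma adjusted p = 0.288; unadjusted p = 0.0341, the 1 gene of the list under 0.05 in this comparison, where 8.91% of all genes were higher at that level). It too had an estimated 1 read over the wild-type imiquimod group, and its fold was 5.02 with a pseudocount of 0.1 and 0.77 with 10. Tnfrsf1b, a TNF receptor, had a log2 fold change of -0.12 ± 1.25, and its groups overlapped.

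Of 31 other genes of the BCL2 family and of cell death 4 were tested, and 0 were called by limma in any comparison. Bcl2l11, which encodes the pro-apoptotic BIM that BCL2 restrains, stood at 5.51, 16.1 and 5.19 in NF-kB1-deficient and 1.05, 0 and 0 in wild-type imiquimod libraries. Its groups did not overlap, and its log2 fold change of 2.80 ± 1.25 had a limma adjusted p of 0.262 and an unadjusted p of 0.0263, the 1 gene of the list under 0.05 in this comparison, where 8.91% of all genes were higher at that level. With an estimated 1 read over the wild-type imiquimod group, the fold depends on the pseudocount and was 5.12 with 0.1 and 0.82 with 10. Cflar, an inhibitor of death receptor signalling, had the opposite order, with 2.003, 2.93 and 5.80 in NF-kB1-deficient and 9.12, 10.5 and 16.2 in wild-type imiquimod libraries (log2 fold change -1.55 ± 1.08, adjusted p = 0.555). Xiap, an inhibitor of caspases, had a log2 fold change of 0.78 ± 1.17 and overlapping groups. The pro-survival gene Bcl2 and the pro-apoptotic gene Bcl2l11 thus had the same order under imiquimod, of which the difference in Bcl2 passed the test.

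Likeness was measured as the root mean square difference of log2(normalized value + 1) over the 12 libraries, after centring each gene on its mean. Closest to Il7r were Ifngr1 (0.62), Add1 (0.66), Gimap4 (0.70), Brd3 (0.75) and Arl6ip5 (0.79), where the median of 1479 candidate genes was 1.77. The closest gene was thus another member, the interferon gamma receptor. Closest to Bcl2 were Jund (0.77), Zbtb7a (0.82), Vsir (0.84), Sik3 (0.87) and Txk (0.87), where the median of 1346 candidates was 2.06. These distances are descriptions over libraries that share depth and group. In wild-type imiquimod replicate 3, the shallowest library, Il7r, Bcl2 and all 10 of their closest genes were below their means. Jund, an AP-1 subunit, was listed at 0 in all 3 wild-type imiquimod libraries and averaged 13.1 ± 5.87 in NF-kB1-deficient imiquimod libraries (SD, n = 3).

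**Figure D4:**
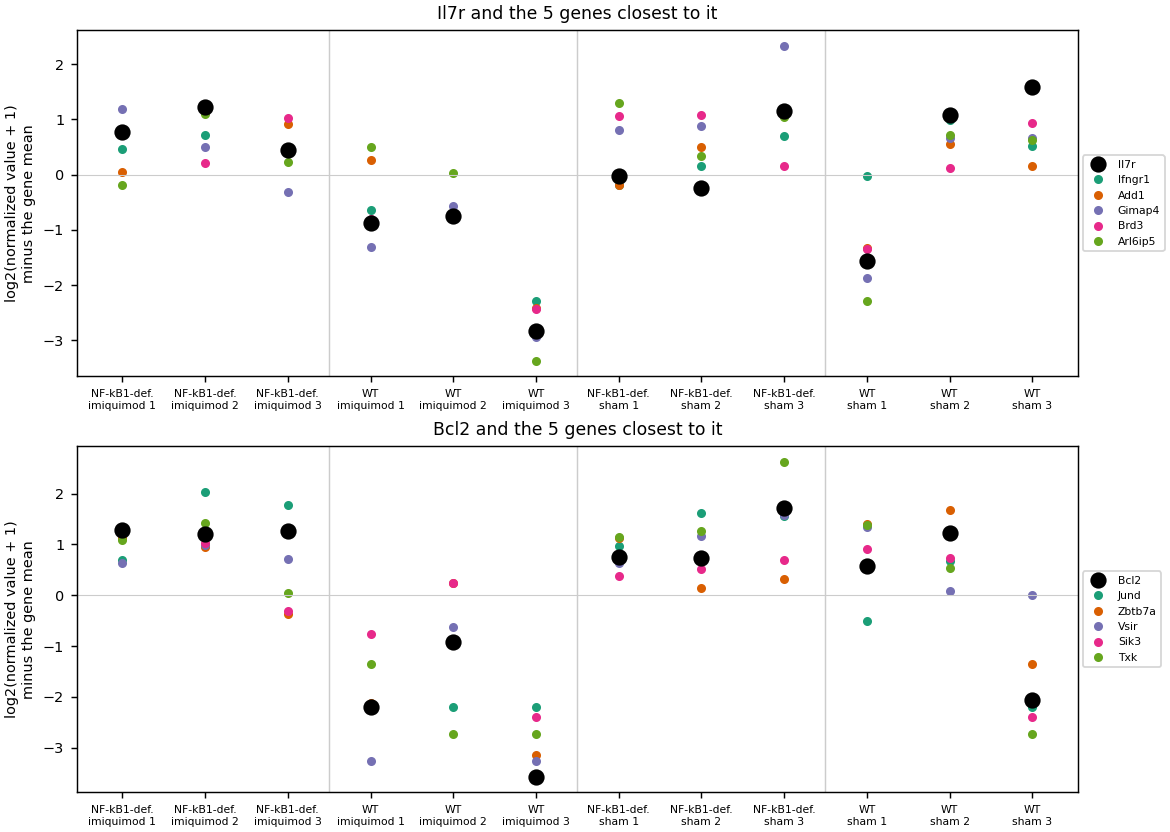
Both panels plot log2(normalized value + 1) minus the gene's mean in each of the 12 libraries, for Il7r (upper) and Bcl2 (lower) in black and for the 5 closest genes in colour. The black points are above 0 in all 3 NF-kB1-deficient imiquimod libraries and below 0 in all 3 wild-type imiquimod libraries.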

How the data were processed

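Libraries were QuantSeq 3′ FWD from Trizol RNA, per the labels' protocols, a kit that reads 1 fragment near the 3′ end of each transcript. Per the submitters' processing notes, mm10 was the build used. How reads were aligned, counted and normalized is not given in the sources used here. What the authors deposited was log2 normalized read counts for 45796 genes and 12 libraries, with 0 for a gene without a value, and 0 columns were left unused. Values were taken back to the linear scale. The value of 1 read, 0.488 to 1.98, was estimated from the steps of low values. Of values under 20 reads 71.3% to 80.2% were whole to 0.01 read, which does not recover the reads, and no count test was run. In the libraries where 1 read was worth under 1, a listed 0 can hide 1 read, and in wild-type sham replicate 2 (0.488) up to 2 reads. Reads that copy 1 molecule could not be removed, so estimated reads need not be separate molecules. In 7 of the 12 libraries the number of genes at each read count had a second peak, at 4 to 6 reads. Its cause was not tested.

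The test was limma 3.58.1 (R 4.3.3, package data.table in version 1.17.8) on log2(normalized value + 1), a scale that understates changes of low genes. A filter kept the 1571 genes, 9 of the 10 members among them, whose mean over the 12 libraries was 5 or more. The single fit had a coefficient for each of the 4 groups and used eBayes with trend and robust (8 residual and a median of 145 prior degrees of freedom). The p-values thus lean more on the spread shared among genes than on a gene's own replicates. Under imiquimod, the SE between the genotypes was 0.67 for Il7r, 0.62 for Foxp1 and 0.92 for Bcl2. Without trend and robust it was 0.92, 0.84 and 0.92. The Benjamini-Hochberg adjustment ran over all 1571 genes in each of 5 comparisons, and SE is the moderated standard error. Half-widths of the 95% intervals had a median of 2.21 on the log2 scale, and SEs a median of 1.12. The fit was also run on simulated data with planted folds. Their spread was fixed and not taken from these data, so that run is no check of the calls. No pairing by replicate number was seen: 0 of 18 same-numbered pairs had deviations correlated above 0.1 (r from -0.01 to 0.06). With so few libraries and reads, low correlations cannot exclude that same-numbered libraries shared a source. Alternatives changed the pseudocount, the filter, the scaling, the libraries in the fit, the eBayes options, a replicate block and each library.

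The members and lists were chosen with earlier results of these data known. One listed gene is left out of the list counts and is not reported here. Named are the 10 members, every list gene called in a comparison (otherwise the 3 tested genes of a list with the highest mean, with Foxo1 added after its values were seen), and the 5 genes closest to Il7r and to Bcl2 among tested genes with an SD of at least 0.5 times theirs. Promoters (GRCm38.p6) and gene positions came from RefSeq, and strands and overlapping genes from GENCODE on the same build. Figures were drawn with matplotlib 3.10.9.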

Additional observations from a re-analysis of the deposited data

How the results depend on the processing

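One limit is depth, at 20507 to 69453 estimated reads per library, with wild-type imiquimod libraries shallower than NF-kB1-deficient imiquimod libraries. The calls of Il7r, Bcl2 and Foxp1 under imiquimod kept their direction in every setting in which the gene was tested. With a mean of at least 20, Bcl2 (mean 17.5) was not tested, and Il7r and Foxp1 were called (limma adjusted p of 0.0371 and 0.0216). The calls of Il7r, Bcl2 and Foxp1 were all lost with no filter on low values, where 9732 genes were tested (adjusted p of 0.611, 0.283 and 0.617). They were also lost in a fit on the compared libraries only (0.1005, 0.0817 and 0.135), and without trend and robust (0.305, 0.173 and 0.296). With a pseudocount of 0.1 the calls of Il7r (0.0878) and Foxp1 (0.0653) were lost and that of Bcl2 was kept (0.0431), and with 10 Il7r (0.0573) and Foxp1 (0.0785) were not called. All 3 calls were kept with equal library totals, which moved the median of all genes by 0.20 between the genotypes under imiquimod, by -0.17 in wild-type imiquimod over sham and by 0.18 in the difference between responses. They were kept with values under 1 read of the shallowest library (1.98) set to 0, an alternative chosen after seeing the data, in which Foxp1 was also called in wild-type imiquimod over sham (-2.16, adjusted p 0.0331).

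Counts of called genes moved by over 1.5 times as follows. For NF-kB1-deficient over wild-type cells under imiquimod, 28 became 18 with a pseudocount of 0.1, 3 with no filter, 17 on the compared libraries only and 0 without trend and robust. For wild-type imiquimod over sham, 51 became 26, 11, 28 and 18 in those 4 settings. The difference between responses had 7 calls, which became 1 with no filter, 13 with a mean of at least 20 and 0 without trend and robust. NF-kB1-deficient imiquimod over sham had 1 call on the compared libraries only, against 0. With 1 library left out, calls ran from 4 to 42, from 23 to 72, from 2 to 12 and from 0 to 0 in those comparisons, and from 0 to 1 between the genotypes under sham. The replicate block gave 32, 55, 7, 0 and 0 calls and changed no call of a named gene. With a pseudocount of 10, the signs of Il18r1 in NF-kB1-deficient imiquimod over sham (-0.063), of Tnfrsf1b between the genotypes under imiquimod (0.0079) and of Mcl1 in the difference between responses (-0.075) turned, and with equal totals that of Tnfrsf1b (0.049). Without 1 library, signs that were not called also turned: Il2rg in wild-type imiquimod over sham (-0.41 to 0.25); Il18r1 in NF-kB1-deficient imiquimod over sham (-1.003 to 1.35); Il7r (-1.03 to 0.54), Il21r (-0.26 to 1.20), Il2rg (-0.72 to 0.036) and Il18r1 (-2.16 to 0.67) between the genotypes under sham; Il17ra (-0.092 to 0.44), Pim1 (-0.024 to 1.44), Tnfrsf1b (-0.84 to 0.82) and Xiap (-0.41 to 1.38) between them under imiquimod; and Mcl1 in the difference between responses (-0.43 to 0.68). Except for fewer or more genes and libraries in the fit, the cause was not tested.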

Other observations

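Among the marker genes, Prdm1, which encodes the transcriptional repressor BLIMP-1 of effector lymphocytes, had values in the opposite order to Il7r. It was at 0, 0 and 5.51 normalized values in NF-kB1-deficient imiquimod libraries and at 6.81, 8.42 and 6.93 in wild-type imiquimod libraries, and it was listed at 0 in all 6 sham libraries. Xbp1, a factor of secretory cells, was at 1.001, 4.89 and 4.54 in NF-kB1-deficient imiquimod, 14.7, 6.32 and 0 in wild-type imiquimod, 0, 0 and 0 in NF-kB1-deficient sham and 0, 2.93 and 2.48 in wild-type sham libraries. Both genes were named after their values were seen, and no test is given for them.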
